A study of Mus musculus with 29 samples.

Results

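The genes described here are Myc and 41 genes of ribosome biogenesis, 42 in all, measured by RNA sequencing in stimulated mouse CD4+ T cells. The 42 symbols were matched to Ensembl gene IDs and kept where at least 3 libraries held 10 or more counts; all 42 were found and all 42 passed, among 55414 IDs in the files and 14178 IDs that passed the same filter. The rule is a list of names and uses no measured value, although the list was drawn up with earlier results of these data known. The lowest count of any of them in any library was 262.

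The 29 libraries came from splenic CD4+ T cells of mice with the genotype C57BL/6-Foxp3tm1Flv/J, a strain in which red fluorescent protein (RFP) reports Foxp3, the lineage factor of regulatory T cells. All cells were stimulated through anti-CD3 at 1.25 ug/ml and anti-CD28 at 2.5 ug/ml in low glucose RPMI with 0.5 mM glucose and 50 IU/ml IL-2, so every group shares activation, low glucose and IL-2. The variables were TGF-beta at 3 ng/ml (present or absent), lactic acid at 10 mM (present or absent), and time at 24 or 72 h. Libraries labelled Tcon are RFP-negative cells and libraries labelled Treg are RFP-positive cells, the latter collected only at 72 h with TGF-beta. At each time Tcon were cultured with no addition, with lactic acid, with TGF-beta, or with both; at 72 h there were also Treg with TGF-beta, without and with lactic acid. Each of the 10 groups has 3 libraries, except 72 h Tcon with no addition, which has 2. Male mice gave the libraries numbered 1, and female mice those numbered 2 and 3. The labels do not say whether replicates were separate animals or cultures, so p-values measure the spread between these libraries, which may be partly technical. No source used here says that both times belong to one experiment, so time and any difference between experiments cannot be told apart.

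Myc is a transcription factor that rises early in T cell activation and binds DNA as a heterodimer with Max, with the palindrome CACGTG (the canonical E-box) as its preferred site. Genes for making ribosomes are among its classical targets. Ribosome production starts in the nucleolus, where RNA polymerase I transcribes the ribosomal RNA precursor; small nucleolar ribonucleoproteins (snoRNPs) then guide its modification, the small-subunit processome and the large-subunit assembly factors cleave, fold and package it with ribosomal proteins, and both subunits are exported. In T cells this machinery is built up early after activation.

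Start-site windows show which of the genes carry the Myc-Max letters near the start, and are printed because the genes moved together. RefSeq start-site windows on GRCm38.p6 (250 bases before and 50 after the start, 300 in all) were held for 36 of the 42 genes, and those of Myc, Fbl, Npm1, Bop1, Rrp12 and Rrs1 were not used. CACGTG, which is its own reverse complement and so reads alike on both strands, was found in 7 of the 36 genes (19.4%), against 8.09% of 27025 genes in the table. Counted by window, it was in 7 of 40 member windows (17.5%) and in 7.15% of 32851 windows of the same length. A related variant, CACGCG, was searched on both strands as a separate motif, shares its first 4 letters with CACGTG and cannot overlap it on either strand. It was in 10 of 36 genes (27.8%) against 10.49% of all genes, and in 11 of 40 windows (27.5%) against 9.27% of all windows. The shares of all genes are over every gene with a window, expressed here or not, and were not matched for base composition. Whether the higher shares in the 42 genes exceed those of like genes was not tested. A match is a description of the letters and not of binding. The stretches of 30 bases that hold CACGTG, with the hexamer in capitals, are these, each 5′ to 3′ on the strand of the gene.
Grwd1: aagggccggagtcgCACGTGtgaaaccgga
Imp4: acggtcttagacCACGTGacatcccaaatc
Ltv1: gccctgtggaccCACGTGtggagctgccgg
Nop2: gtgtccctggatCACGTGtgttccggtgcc
Pes1: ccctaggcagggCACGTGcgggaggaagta
Tsr1: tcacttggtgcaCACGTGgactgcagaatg
Wdr43: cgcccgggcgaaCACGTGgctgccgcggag

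These stretches lie at chr7:45830740-45830769 on the minus strand for Grwd1, chr1:34439696-34439725 on the plus strand for Imp4, and chr10:13193092-13193121 on the minus strand for Ltv1. Those of Nop2 (chr6:125131811-125131840), Pes1 (chr11:3963965-3963994), Tsr1 (chr11:74898092-74898121) and Wdr43 (chr17:71616220-71616249) are on the plus strand. Counted from 0 at the start base, the hexamer begins at base -121 in Imp4 and -60 in Nop2, before the start. It begins after the start at base 2 in Pes1, 17 in Wdr43, 24 in Tsr1, 28 in Ltv1 and 34 in Grwd1. The 250 bases before the start follow for Nop2 (chr6:125131633-125131882, plus strand), which has the hexamer (in capitals), and for Polr1b (chr2:129100746-129100995, plus strand), which does not and which had the widest range of the 42 genes over the groups.
Nop2: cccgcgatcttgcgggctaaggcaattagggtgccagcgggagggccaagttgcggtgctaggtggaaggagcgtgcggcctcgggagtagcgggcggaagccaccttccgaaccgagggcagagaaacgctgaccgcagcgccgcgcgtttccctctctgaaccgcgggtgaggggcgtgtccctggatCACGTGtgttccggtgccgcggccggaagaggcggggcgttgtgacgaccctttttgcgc
Polr1b: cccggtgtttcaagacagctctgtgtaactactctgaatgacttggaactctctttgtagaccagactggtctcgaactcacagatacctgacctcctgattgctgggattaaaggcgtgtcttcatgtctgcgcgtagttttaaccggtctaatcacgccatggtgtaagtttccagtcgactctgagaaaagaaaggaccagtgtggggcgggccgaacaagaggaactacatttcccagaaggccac

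Gene counts per library ranged from 9754511 to 14315313 with a median of 12106958. Levels are given as CPM, counts relative to library size, on sizes scaled by the trimmed mean of M-values (TMM), with factors between 0.96 and 1.08. The T cell label was checked on its defining markers: Cd3e lay between 256.1 and 571.6 CPM and Cd4 between 418.6 and 668.7 CPM in every library. All 12 myeloid and all 6 measured erythroid markers had a mean under 1 CPM, their sums reached at most 0.822 and 0.579 CPM, and 6 of the myeloid markers had no count in any library. Of 10 B cell markers 3 averaged over 1 CPM, with Ighm, an immunoglobulin heavy chain, at 165.9 CPM. Of 10 CD8 and natural killer markers 8 averaged over 1 CPM, the highest being Nkg7 at 62.6 CPM. Foxp3 was at 223.9 ± 75.5 CPM in Treg with TGF-beta and 467.5 ± 104.9 with lactic acid also present (SD, n = 3), and at 23.4 ± 10.7 and 48.2 ± 12.1 in the matching Tcon. Tcon at 24 h with TGF-beta also held Foxp3 message, at 47.3 ± 4.35 CPM without and 65.0 ± 8.11 with lactic acid. In bulk libraries, fewer cells of a type and less RNA per cell cannot be told apart.

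Myc was most abundant at 24 h without TGF-beta. Its level was 830.6, 762.6 and 794.9 CPM in 24 h Tcon with no addition (replicates 1 to 3) and 876.4, 838.1 and 844.7 CPM with lactic acid. With TGF-beta at 24 h it was 584.0, 568.3 and 527.4 CPM, and with both TGF-beta and lactic acid 490.4, 480.2 and 466.0 CPM. These 4 groups did not overlap one another. At 72 h it was 228.2 and 434.6 CPM in Tcon with no addition, and 284.5, 503.5 and 416.7 CPM with lactic acid. With TGF-beta at 72 h, Tcon held 146.0, 280.7 and 313.8 CPM, and 254.0, 321.2 and 354.4 CPM when lactic acid was also present. Treg with TGF-beta held 185.5, 360.7 and 397.8 CPM, and 300.8, 405.4 and 436.6 CPM with lactic acid. All 6 groups at 72 h overlapped their neighbours in the order of means, which ran from 401.6 ± 110.3 CPM (SD, n = 3) in Tcon with lactic acid, through Treg with TGF-beta and lactic acid, Tcon with no addition, Treg with TGF-beta and Tcon with TGF-beta and lactic acid, down to 246.8 ± 88.9 CPM (SD, n = 3) in Tcon with TGF-beta. In each 72 h group the lowest library was replicate 1.

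Most ribosome biogenesis genes, like Myc, were highest at 24 h and lowest at 72 h with TGF-beta. The order of the groups was not the same throughout. In Treg with TGF-beta and lactic acid Myc averaged 380.9 CPM, above 331.4 CPM in 72 h Tcon with no addition. The sum of the 42 genes was lowest in that Treg group. At 24 h without TGF-beta the mean of Myc was 853.1 CPM with lactic acid and 796.0 CPM without, while the sum was lower with it. Of the 42 genes, 39 had their highest group mean in 24 h Tcon with no addition. Myc and Ddx10 were highest in 24 h Tcon with lactic acid, and Polr1c was highest in 72 h Tcon with lactic acid. All 42 had their lowest group mean in a 72 h group with TGF-beta. The ratio of the highest to the lowest group mean ran from 1.73 (Polr1c) to 5.47 (Polr1b), with a median of 2.95. Summed over the 42 genes, the level at 24 h was 20810 ± 755.3 CPM (SD, n = 3) with no addition, then 18919 ± 1061 with lactic acid and 16197 ± 969.3 with TGF-beta and 14185 ± 693.0 with both. At 72 h the sum was 11362 ± 3832 CPM (SD, n = 2) with no addition and 14217 ± 2857 (n = 3) with lactic acid, and in the 4 groups with TGF-beta it lay between 7644 ± 942.5 and 8312 ± 1790 (n = 3).

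**Figure D1:**
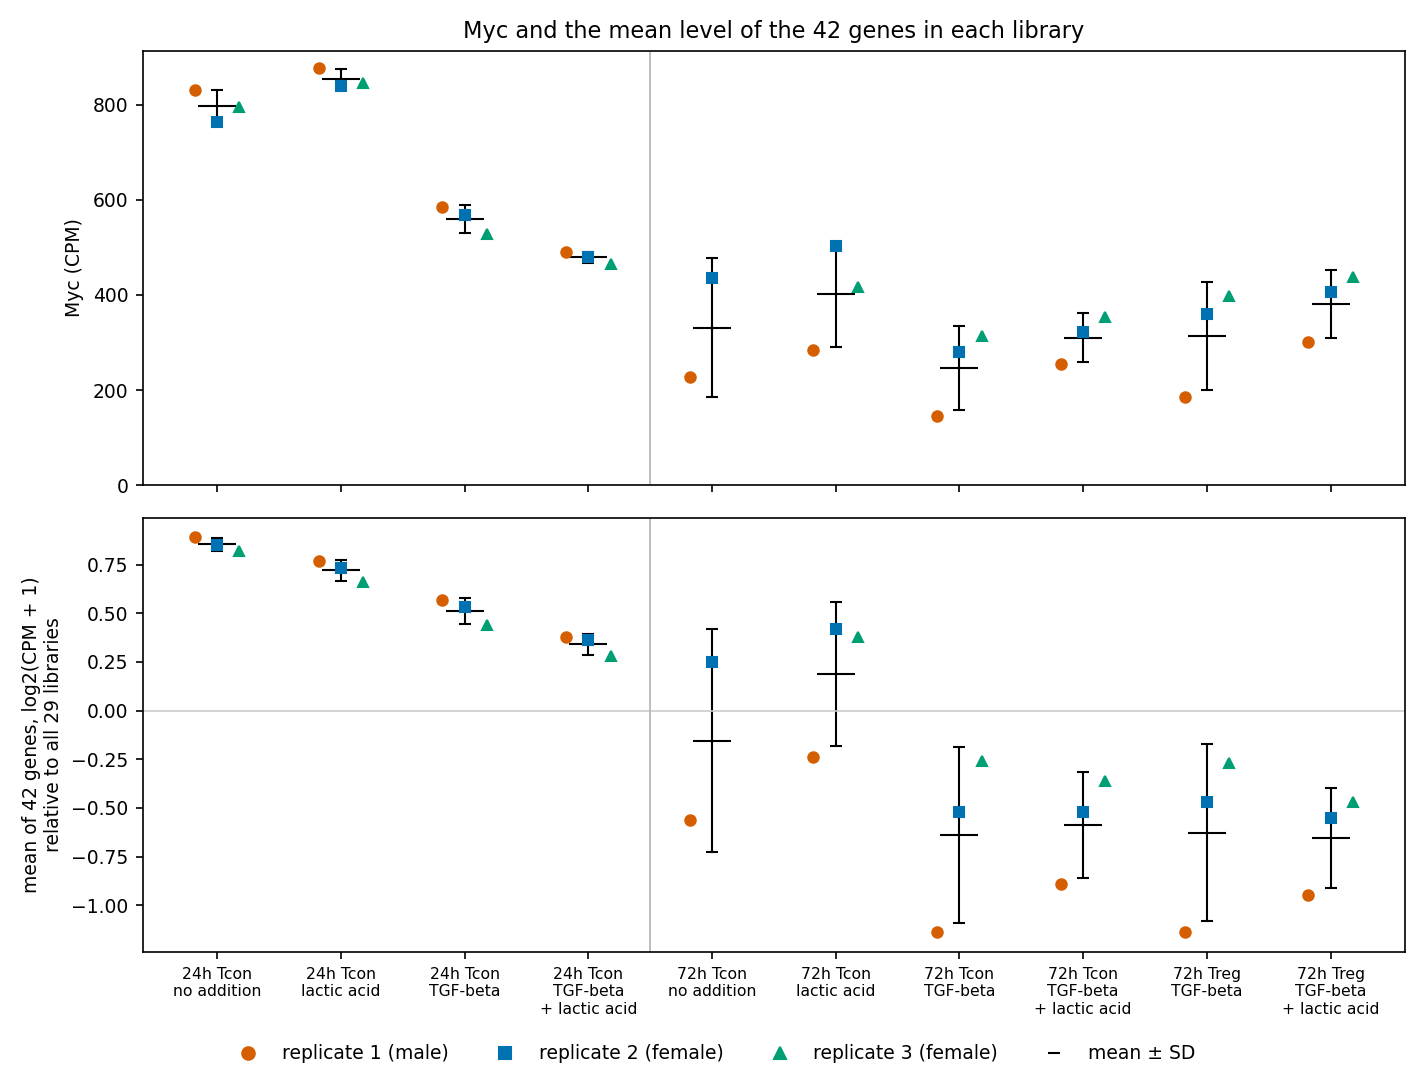
Myc in CPM (top) and the mean of the 42 genes as log2(CPM + 1) relative to each gene's mean over the 29 libraries (bottom), by group; points are libraries, shaped by replicate, and bars are mean ± SD. The 24 h groups are tight, with group means of the lower plot from 0.853 to 0.34, whereas in each 72 h group replicate 1 lies lowest.

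The spread within the 72 h groups followed the replicate number. In each of them, the library numbered 1 was below each other library of its group in 36 to 42 of the 42 genes, by a median of 0.39 to 0.96 log2 units, while the median over all genes lay between -0.02 and 0.03. These are the libraries from male mice. Sex and anything else that replicate 1 shares cannot be told apart. At 24 h the libraries numbered 1, also male, had the highest mean relative level of the 42 genes in each group. They lay at 0.89, 0.77, 0.57 and 0.38 with no addition, lactic acid, TGF-beta and both. The next library of each of these groups lay at 0.85, 0.73, 0.53 and 0.36. The mean relative level of the 42 genes had an SD of 0.0351 to 0.0666 within the 24 h groups and of 0.257 to 0.573 within the 72 h groups. Each count of genes is therefore also given without the 6 libraries numbered 1 at 72 h where it moves by more than 1.5 times; 72 h Tcon with no addition then keeps 1 library, assumed to vary like the other groups.

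**Figure D2:**
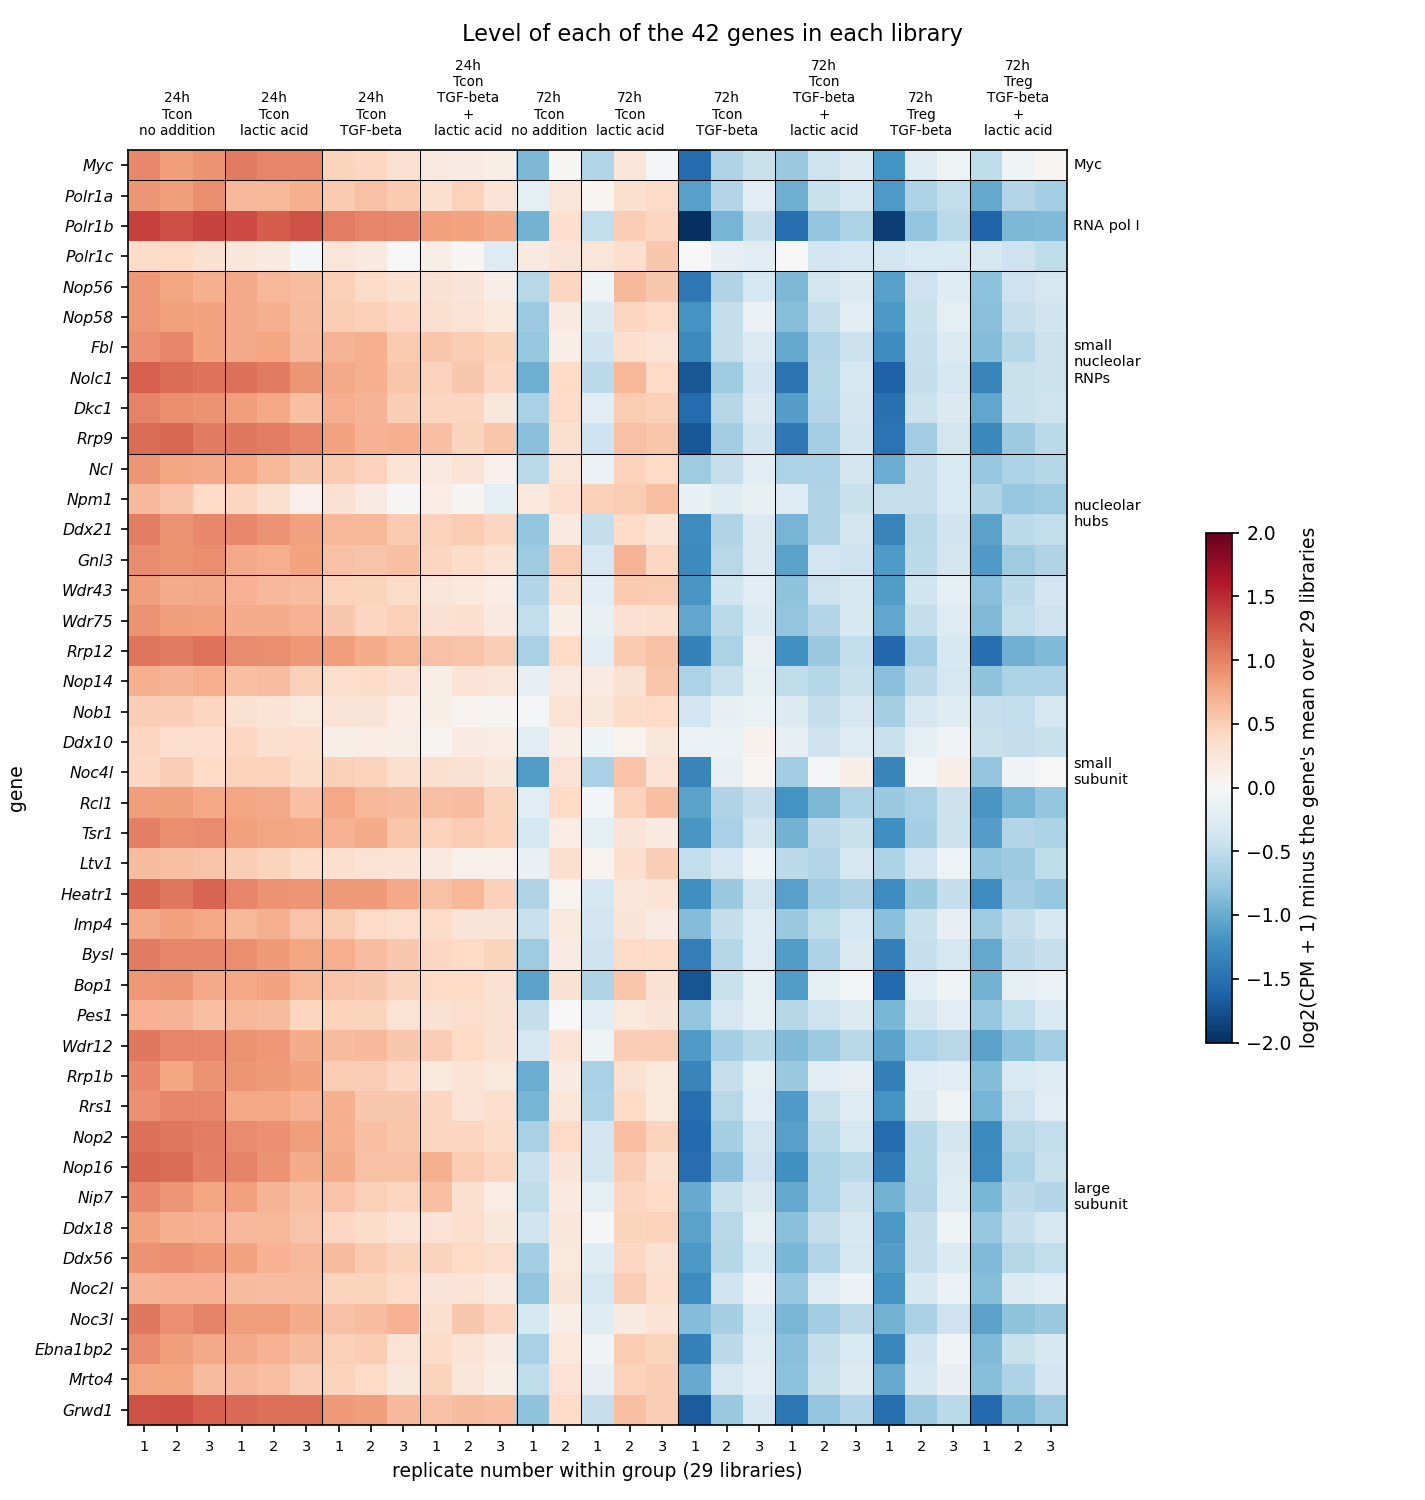
Level of each of the 42 genes (rows, by role) in each of the 29 libraries (columns, by group and replicate) as log2(CPM + 1) minus the gene's mean over all libraries. The 24 h libraries are red, the 72 h libraries with TGF-beta mostly blue, and the column of replicate 1 is the palest or bluest of each 72 h group in most rows; the rows of Polr1c, Nob1 and Ddx10 are the palest.

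RNA polymerase I is represented by 3 subunits, which hold both the widest and the narrowest range of the 42 genes. Polr1b, the second-largest subunit, held 323.8, 305.7 and 319.8 CPM in 24 h Tcon with no addition. At 72 h it held 64.1 and 157.4 CPM with no addition, and 28.8, 64.5 and 89.7 CPM with TGF-beta, so no 72 h library reached any 24 h library. Polr1a, the largest subunit, lay between the other 2, running from a mean of 341.0 ± 11.7 CPM (SD, n = 3) in 24 h Tcon to 109.7 ± 17.2 in Treg with TGF-beta and lactic acid. Polr1c, a subunit that polymerases I and III share, held 126.7, 130.2 and 120.9 CPM in 24 h Tcon and 115.6, 123.4 and 142.3 CPM in 72 h Tcon with lactic acid, which overlap. Per kilobase of transcript, over all libraries, Polr1c was the highest of the 3 at 76.1 CPM and Polr1a the lowest at 22.0 CPM.

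The 6 snoRNP genes (Nop56, Nop58 and Fbl of the box C/D particle, Dkc1 of the box H/ACA particle, Nolc1, a chaperone of both, and Rrp9, of the U3 particle) had ratios of highest to lowest group mean from 2.62 to 3.92. Fbl, the methyltransferase fibrillarin, held 179.8, 188.4 and 168.0 CPM in 24 h Tcon, 56.2 and 104.7 CPM in 72 h Tcon, and 38.8, 67.9 and 78.8 CPM in 72 h Tcon with TGF-beta. Its 72 h libraries without and with TGF-beta overlap, and all lie below 24 h. Nop56, a core scaffold protein, held 574.7, 544.8 and 513.9 CPM in 24 h Tcon, 297.0, 493.5 and 458.7 CPM in 72 h Tcon with lactic acid, and 168.6, 244.2 and 259.8 CPM when TGF-beta was also present, so the libraries with TGF-beta lie below all the others. Nolc1 had the widest ratio of the 6, with 761.0, 727.5 and 709.5 CPM in 24 h Tcon against 101.3, 203.3 and 255.6 CPM in 72 h Tcon with TGF-beta. Per kilobase, Nop58 was the highest at 221.1 CPM and Rrp9 the lowest at 75.7 CPM; Rrp9 ran from 218.4 ± 8.04 CPM in 24 h Tcon to 56.4 ± 23.4 in 72 h Tcon with TGF-beta (SD, n = 3), and Nop58 from 621.7 ± 14.3 to 237.4 ± 37.2 in Treg with TGF-beta and lactic acid.

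Nucleolar hub proteins include the most abundant of the 42 genes. Npm1 (nucleophosmin, a chaperone of the granular nucleolus) averaged 1123.9 CPM per kilobase, the highest of all 42. It held 2751, 2623 and 2322 CPM in 24 h Tcon, 2454, 2517 and 2686 CPM in 72 h Tcon with lactic acid, and 1481, 1159 and 1294 CPM in 72 h Tcon with TGF-beta and lactic acid. Only the last of these 3 groups stood apart from the others. Ncl (nucleolin, an RNA-binding protein of the nucleolus) held 5326, 4953 and 4864 CPM in 24 h Tcon, 1978 and 3381 CPM in 72 h Tcon, and 1748, 2090 and 2467 CPM in 72 h Tcon with TGF-beta, and the last pair of groups overlap. Over all libraries Ncl averaged 3090.6 CPM, more than Npm1 at 1835.4 CPM. Its 376.8 CPM per kilobase rests on a long annotated transcript of 8202 bases. Gnl3 (nucleostemin, a nucleolar GTPase) was the lowest of the 4 per kilobase, at 112.8 CPM, and Ddx21, an RNA helicase, lay between, at 168.5 CPM.

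The 13 small-subunit genes had ratios of 1.75 (Noc4l) to 4.52 (Rrp12), with a median of 2.63. Bysl (bystin, needed for 40S maturation) was the lowest per kilobase, at 25.5 CPM, and ran from 178.9, 171.6 and 171.7 CPM in 24 h Tcon to 32.5, 58.1 and 72.7 CPM in 72 h Tcon with TGF-beta. Wdr43, a processome protein, was the highest at 84.5 CPM per kilobase and ran from 464.0 ± 15.9 to 182.0 ± 28.9 CPM (SD, n = 3). Heatr1, a large processome scaffold, held 621.9, 583.5 and 631.2 CPM in 24 h Tcon and 185.2 and 293.5 CPM in 72 h Tcon, with no overlap. Rcl1, a processome protein of the cyclase fold, held 162.4, 161.0 and 154.9 CPM in 24 h Tcon, and at 72 h 86.5, 124.3 and 136.6 CPM with lactic acid against 38.6, 48.0 and 58.2 CPM with TGF-beta and lactic acid. Its 72 h libraries with and without TGF-beta do not overlap. Nob1, the endonuclease that makes the final cut of 18S rRNA, and Ddx10, a helicase, had low ratios of 1.89 and 1.78.

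The 15 large-subunit genes had ratios of 2.24 (Pes1) to 4.94 (Grwd1), with a median of 2.92. Grwd1, a histone-binding WD-repeat protein linked to ribosome assembly, held 171.6, 173.0 and 162.3 CPM in 24 h Tcon and 21.5, 41.3 and 55.3 CPM in 72 h Tcon with TGF-beta. Bop1, which with Pes1 and Wdr12 forms the PeBoW complex of 60S assembly, held 283.7, 286.7 and 261.9 CPM in 24 h Tcon, and at 72 h 73.1 and 191.6 CPM with no addition and 46.0, 113.1 and 135.0 CPM with TGF-beta. In both 72 h groups replicate 1 of Bop1 lay below the other libraries. Wdr12 was the lowest of all 42 per kilobase, at 8.93 CPM, on a long annotated transcript of 10012 bases, and Noc2l the highest of the 15, at 158.9 CPM. Wdr12 ran from 159.3 ± 5.08 to 43.5 ± 5.94 CPM and Noc2l from 666.2 ± 2.06 to 289.1 ± 106.9 CPM (SD, n = 3).

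**Figure D3:**
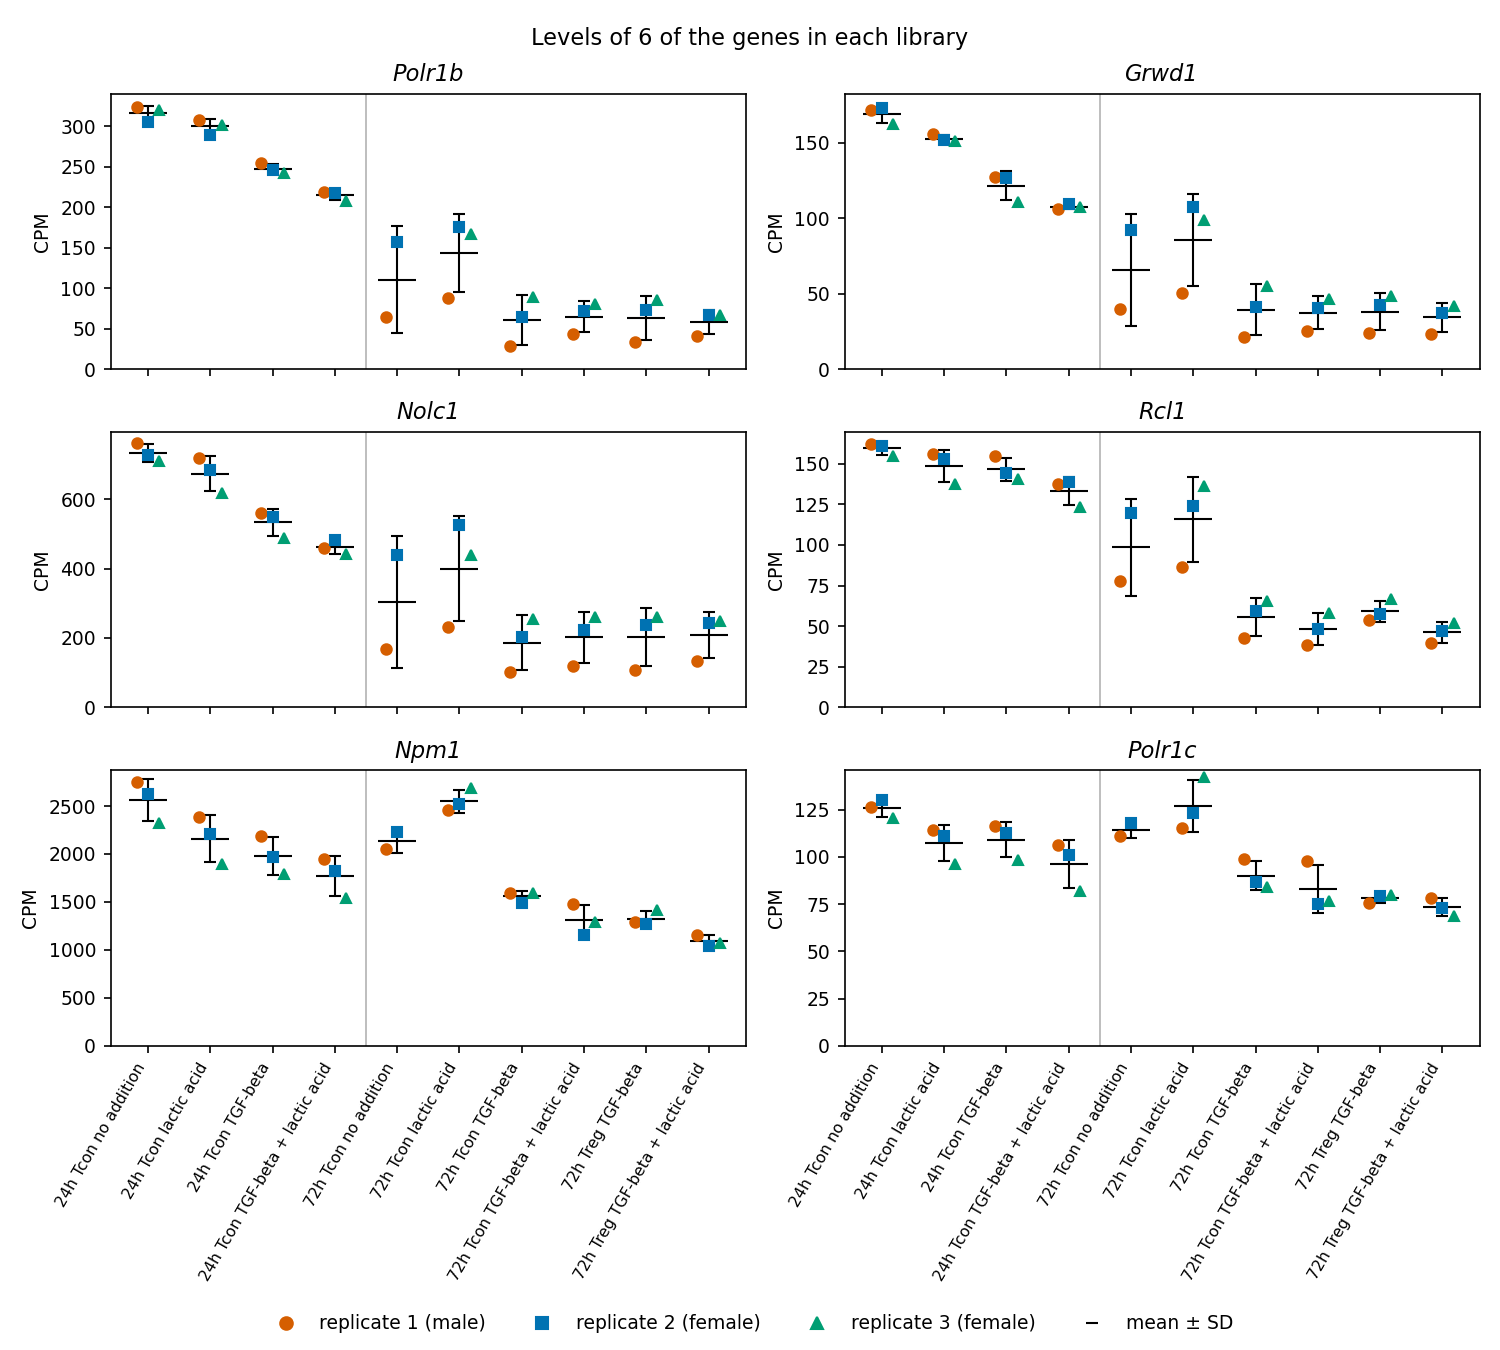
CPM of Polr1b, Grwd1, Nolc1, Rcl1, Npm1 and Polr1c by group; points are libraries shaped by replicate, bars are mean ± SD, and a vertical line parts 24 h from 72 h. Polr1b, Grwd1 and Nolc1 are lower at 72 h, with replicate 1 lowest, Rcl1 separates by TGF-beta at 72 h, and Npm1 and Polr1c in 72 h Tcon with lactic acid overlap 24 h Tcon.

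Between 24 and 72 h most of the genes fell in Tcon under 3 of the 4 conditions, and fewer were called with lactic acid alone. Calls are from edgeR's quasi-likelihood test over 14375 genes in all 29 libraries, at a Benjamini-Hochberg adjusted p under 0.05. With no addition, 38 of 42 fell, where 18.4% of all genes tested were called lower, and the median change of the 42 was -1.01 log2 units against 0.05 over all genes. The exceptions were Npm1, Bop1, Noc4l and Polr1c. With TGF-beta 40 of 42 fell (24.8% of all genes; median -1.16 against 0.01), Ddx10 and Noc4l being the exceptions. With TGF-beta and lactic acid 36 fell (23.0% of all genes; median -0.88 against -0.02), and Myc, Bop1, Rrp1b, Noc2l, Noc4l and Polr1c were not called. With lactic acid alone 17 fell (20.1% of all genes; median -0.51 against 0.02). None of the 42 was called higher in any of the 4 comparisons in this fit.

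Myc fell with time by 1.26 ± 0.31 log2 units (SE, edgeR adjusted p = 0.00202) with no addition, by 1.09 ± 0.27 (adjusted p = 0.00192) with lactic acid and by 1.18 ± 0.27 (adjusted p = 8.39e-04) with TGF-beta. With both, its change was -0.63 ± 0.27 (edgeR adjusted p = 0.0562), which is not called. Polr1b had the largest fall of the 42 in 3 of the 4 conditions, with -1.51 ± 0.41 log2 units with no addition, -2.02 ± 0.37 with TGF-beta and -1.73 ± 0.36 with both (edgeR adjusted p = 0.00485, 7.92e-05 and 4.32e-04), and with lactic acid alone it fell by 1.06 ± 0.35 (adjusted p = 0.0169), next to Myc. Heatr1 fell in all 4, with changes of -1.35 ± 0.25, -0.85 ± 0.21, -1.56 ± 0.22 and -1.36 ± 0.21 in the order no addition, lactic acid, TGF-beta and both. Grwd1 changed by -1.36 ± 0.37, -1.63 ± 0.33 and -1.53 ± 0.33 with no addition, TGF-beta and both. Among the other large falls were Nolc1 with no addition (-1.27 ± 0.42), Rrp9 with TGF-beta (-1.59 ± 0.33), Rcl1 with both (-1.46 ± 0.18) and Rrp1b with lactic acid (-0.84 ± 0.30). Polr1c with no addition differed by -0.14 ± 0.12, the smallest change there.

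Single libraries carried part of these counts. For fits with 1 library left out, the share of all genes called is not given here or below. Counts from such fits are therefore not set against all genes. Without replicate 1 of 72 h Tcon, 7 of the 42 were called with no addition in place of 38. With lactic acid the count was 5 without replicate 1 of the 72 h group and 10 without replicate 1 or replicate 2 of the 24 h group. Without all 6 libraries numbered 1 at 72 h it was 31, of which 29 fell and 2 rose (Npm1 and Polr1c), where 53.8% of all genes were called in either direction. The 10 proliferation markers moved the other way with time: 7 rose and 2 fell with no addition, and their summed level was between 1119 and 5568 CPM over all libraries, with group means of 1319 to 2097 CPM at 24 h and 3446 to 5184 CPM at 72 h. Of 8 CD8 and natural killer markers tested, 3 rose and 1 fell with no addition and 6 rose with TGF-beta, their list sums staying between 62.9 and 249.6 CPM in all libraries and Cd8a at or under 16.1 CPM. The B cell marker sum lay between 85.3 and 300.8 CPM in all libraries, its group mean being 242.0 CPM at 24 h and 105.7 CPM at 72 h with no addition, and 229.6 and 121.3 CPM with lactic acid. Of 10 T cell markers 3 fell and 1 rose with no addition and 6 fell with lactic acid, their summed level averaging 3928 CPM at 24 h against 3459 CPM at 72 h with no addition, and 4023 against 3000 CPM with lactic acid. Over all genes 27.1% rose and 18.4% fell with no addition, 28.0% rose with TGF-beta and 20.1% fell with lactic acid. The part of these markers in the fall was not tested.

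**Figure D4:**
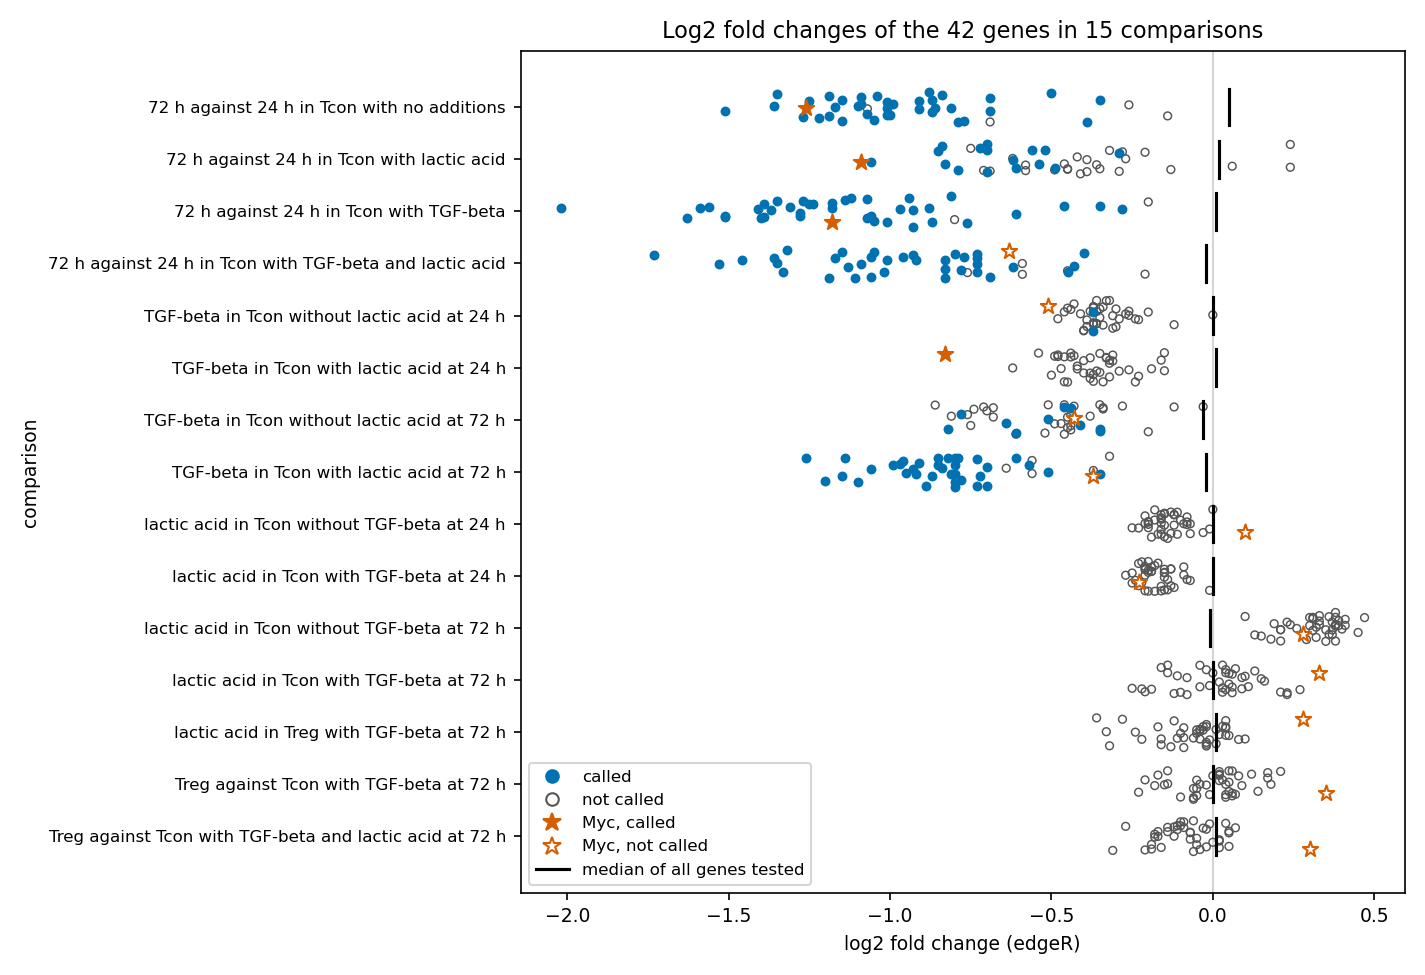
Log2 fold changes of the 42 genes (points) in 15 comparisons (rows); filled points are called, stars are Myc, and a black bar is the median of all genes tested. Nearly all points lie left of the bar for time and TGF-beta, with 39 of 42 below 0 for time with lactic acid, and around it for lactic acid at 72 h with TGF-beta and for Treg against Tcon.

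All 42 genes had an estimated change below 0 with TGF-beta in Tcon in each of 4 comparisons, while between 47.6% and 52.9% of all genes were below 0 there. At 24 h the differences were small and even: the median was -0.36 log2 units without and -0.37 with lactic acid. The edgeR test called 2 genes without lactic acid, Npm1, which fell by 0.37 ± 0.11 (adjusted p = 0.0263), and Nop14, a processome protein, which fell by 0.37 ± 0.12 (adjusted p = 0.0474), where 3.35% of all genes were called lower. With lactic acid it called 1 gene, Myc, which fell by 0.83 ± 0.27 (edgeR adjusted p = 0.0416), where 4.38% were called lower. Each of these 3 calls was lost on leaving out single libraries. The groups themselves did not overlap for 41 of 42 genes without lactic acid (21.0% of all genes were lower without overlap), Noc4l being the exception. They did not overlap for 39 with lactic acid (18.6% of all genes), the exceptions being Npm1, Polr1c and Rcl1.

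Same-numbered libraries deviated together within a time, and with the replicate number as a block within each time the 24 h counts rose to 39 genes called lower without lactic acid (15.1% of all genes) and 38 with it (15.1%). In the blocked fit Myc was called in both (edgeR adjusted p = 5.83e-04 and 1.15e-06), its change in the fit without the block being -0.51 ± 0.27 without lactic acid (adjusted p = 0.246). In each same-numbered pair at 24 h 41 or 42 of the 42 genes were lower with TGF-beta. Fitting the compared groups alone called 39 lower without lactic acid (14.5% of all genes) and 37 with it (12.7%). Other marker sums moved with TGF-beta at 24 h, without lactic acid from 2097 to 1624 CPM for proliferation, 242.0 to 133.5 CPM for B cell and 137.7 to 75.1 CPM for CD8 and natural killer markers; their part was not tested.

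At 72 h TGF-beta was called for more of the genes where lactic acid was present, although the difference between both effects was called for none (tested below as the action of lactic acid with and without TGF-beta). Without lactic acid 10 of 42 fell (11.7% of all genes called lower; median -0.46 against -0.03): Npm1, Wdr12, Nop14, Nob1, Noc3l, Polr1a, Polr1c, Rcl1, Tsr1 and Ltv1. The largest of these falls were in Rcl1 (-0.82 ± 0.19, edgeR adjusted p = 0.00268), Wdr12 (-0.78 ± 0.19, adjusted p = 0.00352), Polr1a (-0.64 ± 0.20, adjusted p = 0.0246) and Tsr1, a GTPase-like 40S factor (-0.61 ± 0.21, adjusted p = 0.039). Groups did not overlap for 8 genes, where 19.7% of all genes were lower without overlap. This count rested on the 2 libraries of 72 h Tcon with no addition: it was 25 without replicate 1 of that group and 0 without replicate 2, and 4 without replicate 1 or replicate 2 of the TGF-beta group. With the block, 40 were called lower (24.1% of all genes), and without the libraries numbered 1 also 40 (16.8%). Fitting the compared groups alone, edgeR called none (3.17% of all genes lower), with 4 at an unadjusted p under 0.05. The share of all genes called with 1 library left out is not given here.

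With lactic acid 36 of 42 fell with TGF-beta at 72 h (22.5% of all genes; median -0.80 against -0.02), including all 6 snoRNP genes, all 4 hub genes, all 3 polymerase I subunits, 12 of 13 small-subunit genes and 11 of 15 large-subunit genes. Rcl1 fell by 1.26 ± 0.18 (edgeR adjusted p = 4.24e-06), Grwd1 by 1.20 ± 0.33 (adjusted p = 0.00454), Polr1b by 1.15 ± 0.36 (adjusted p = 0.0123) and Rrp12, a factor of subunit export, by 1.14 ± 0.30 (adjusted p = 0.00342). The groups did not overlap for 29 genes (24.6% of all genes). Myc was among the 6 genes not called, at -0.37 ± 0.27 (edgeR adjusted p = 0.263), with Bop1, Rrp1b, Rrs1, Noc2l and Noc4l. Without lactic acid its change was -0.43 ± 0.29 (adjusted p = 0.325). With the block Myc was called lower in both (edgeR adjusted p = 0.00669 with and 4.95e-04 without lactic acid), as were all 42 genes with lactic acid. The share of all genes called lower in the blocked fit with lactic acid is not given here. Without replicate 1 of 72 h Tcon with TGF-beta and lactic acid the count of the 42 called was 22, with no share of all genes given for that fit. Of the 8 CD8 and natural killer markers tested, 5 rose with TGF-beta at 72 h in each comparison. Among all 14375 genes tested, 1834 rose without and 3237 with lactic acid. Group means of the marker sum were 165.0 and 223.7 CPM with TGF-beta against 110.6 and 91.1 CPM without. The part of these markers was not tested.

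The difference between the TGF-beta effects at 72 h and 24 h was tested as an interaction. With lactic acid present, 5 of 42 genes had a term called lower, where 7.66% of all genes were called lower. This count is not far above the share of all genes. Rcl1 had a term of -1.10 ± 0.25 log2 units (edgeR adjusted p = 0.00349), Npm1 of -0.67 ± 0.15 (adjusted p = 0.00408), Nob1 of -0.51 ± 0.14 (adjusted p = 0.0137), Nop14 of -0.52 ± 0.17 (adjusted p = 0.0402) and Polr1c of -0.46 ± 0.16 (adjusted p = 0.0498). The first 3 were called whichever single library was left out. For Myc the term had the other sign, at 0.46 ± 0.38 (edgeR adjusted p = 0.469). The median of the 42 was -0.45 against -0.04 over all genes. With the block 31 genes were called, 30 lower and 1 higher, Myc (edgeR adjusted p = 0.013), where 33.6% of all genes were called in either direction. Without the libraries numbered 1 at 72 h 33 were called, 32 of them lower (26.9% of all genes in either direction). Without lactic acid no gene of the 42 was called by edgeR or DESeq2 (5.73% of all genes in either direction; 1 member with an unadjusted p under 0.05), although the block gave 15 lower (11.4% of all genes) and the fit without the libraries numbered 1 gave 8 lower (6.22%).

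Lactic acid changed none of the 42 genes past the threshold in any of the 5 comparisons, by edgeR or by DESeq2. At 24 h the changes were small and nearly all below 0: 40 of 42 without TGF-beta (median -0.15; 3 genes with an unadjusted p under 0.05; 0.0835% of all genes called in either direction) and 42 of 42 with TGF-beta (median -0.18; 0 with p under 0.05; 0.23% of all genes). With the block 1 gene was called in each, Npm1 without TGF-beta, at -0.25 (edgeR adjusted p = 0.0313; 1.15% of all genes called lower), and Heatr1 with TGF-beta, at -0.25 (adjusted p = 0.0358; 2.44% called lower). Myc differed by 0.10 without and -0.23 with TGF-beta (edgeR adjusted p = 0.985 and 0.915). Same-numbered pairs gave medians of -0.12 to -0.18 without and -0.17 to -0.19 with TGF-beta. Fitting the compared groups alone, edgeR again called none in either comparison. In that fit 26 of the 42 had an unadjusted p under 0.05 in each. The share of all genes under that p is not given here, so the count is not read as a result about the 42.

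At 72 h without TGF-beta the sign was the other way, with all 42 genes above 0 (median 0.33 against -0.01). None of them was called, 2 had an unadjusted p under 0.05, and 0.0696% of all genes were called. The 2 same-numbered pairs gave medians of 0.34 and 0.19. At 72 h with TGF-beta there was no common direction. In Tcon the median was 0.04, with 17 of 42 below 0 (2 with p under 0.05; 2.16% of all genes called), and in Treg it was -0.04, with 30 below 0 (3 with p under 0.05; 3.51% of all genes called). Replicate 1 differed here from the others: its pair had a median of 0.24 in Tcon and 0.19 in Treg, with 35 of 42 genes higher in each, whereas pairs 2 and 3 had medians of -0.01 and -0.10 in Tcon and -0.05 and -0.19 in Treg.

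With the block, lactic acid at 72 h with TGF-beta was called for 4 genes in Tcon (15.4% of all genes in either direction) and 5 in Treg (19.7%). Myc was higher in both, by 0.39 and 0.33 log2 units (edgeR adjusted p = 0.0133 and 0.0284), and Npm1 lower in both, by 0.25 and 0.28 (adjusted p = 0.0108 and 0.00349). Nop56 and Bop1 were also higher in Tcon, and Rcl1, Ltv1 and Noc3l lower in Treg. Without the libraries numbered 1, 2 genes were called lower in Tcon, Nob1 and Ddx10 (3.77% of all genes), and 3 in Treg, Rrp12, Ddx10 and Ltv1 (4.77%). In the fit without the block Myc differed by 0.28 in 72 h Tcon without TGF-beta, 0.33 in Tcon with TGF-beta and 0.28 in Treg (edgeR adjusted p = 0.79, 0.656 and 0.665). The B cell marker sum moved with lactic acid in these groups, from 98.9 to 189.2 CPM in Tcon with TGF-beta and from 133.3 to 283.7 CPM in Treg; its part was not tested.

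Whether lactic acid acted differently with and without TGF-beta was tested at each time. At 24 h no gene of the 42 was called (0.0% of all genes; 0 with an unadjusted p under 0.05), nor by DESeq2. At 72 h none was called by either tool (0.104% of all genes), 41 of 42 terms were below 0 with a median of -0.30, and 4 genes had an unadjusted p under 0.05. The block called 1 there, Npm1 at -0.49 (edgeR adjusted p = 0.00633; 2.55% of all genes called lower). The effect of lactic acid in Treg against that in Tcon gave no call in the 42 or in any gene (0.0%; 0 members with p under 0.05; none by DESeq2).

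None of the 42 genes was called between Treg and Tcon cultured with TGF-beta for 72 h in the fit without the block, while their Foxp3 levels did not overlap (153.2 to 303.4 CPM against 15.4 to 35.6 CPM without lactic acid). Neither edgeR nor DESeq2 called any of the 42, without lactic acid (0.216% of all genes; median 0.02; 1 member with an unadjusted p under 0.05) or with it (2.55%; median -0.07; 1 member). Individual differences lay between -0.23 and 0.35 log2 units without lactic acid, and between -0.31 and 0.30 with it. Myc was at the upper end in both, at 0.35 (edgeR adjusted p = 1) and 0.30 (adjusted p = 0.72) above Tcon. It was higher in Treg in all 6 same-numbered pairs, by 0.34, 0.36 and 0.34 log2 units without lactic acid and 0.24, 0.34 and 0.30 with it, and was not called with the block (edgeR adjusted p = 0.0774 and 0.0719). With lactic acid the block called Npm1 and Rrp12 lower in Treg, by 0.26 and 0.31 (edgeR adjusted p = 0.00915 and 0.0431; 5.75% of all genes called lower). Without the libraries numbered 1, Myc was the only one of the 42 called, at 0.32 higher in Treg (edgeR adjusted p = 0.0347; 5.99% of all genes in either direction).

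Other genes of the same machinery moved in the same direction. Of 39 other small-subunit processome factors, 34, 24, 35 and 31 fell with time under no addition, lactic acid, TGF-beta and both, and at most 1 rose. Over all genes 18.4%, 20.1%, 24.8% and 23.0% fell with time in the same order. Of 40 other large-subunit factors 34, 16, 36 and 33 fell, and 1 to 3 rose. Mdn1, a giant ATPase that strips factors from pre-60S particles, went from a mean of 711.1 to 199.6 CPM with no addition and fell by 1.83 ± 0.35 log2 units (edgeR adjusted p = 1.98e-04). Utp20, a processome scaffold, fell by 1.20 ± 0.22 there. Of 11 other snoRNP proteins 8, 4, 8 and 7 fell, among them Nop10 of the H/ACA particle, by 1.06 ± 0.36 with no addition. Of 18 other polymerase I subunits and factors 11, 9, 14 and 14 fell, and Polr1g changed by -1.63 ± 0.34 with no addition. With TGF-beta at 72 h and lactic acid, 28 of 39, 26 of 40, 9 of 11 and 11 of 18 of these 4 lists fell, against 5, 10, 1 and 1 without lactic acid and 0 to 3 of each at 24 h. Over all genes 22.5% fell there, against 11.7% without lactic acid, and 3.35% and 4.38% at 24 h without and with it. At 72 h without lactic acid the counts of 5 of 39, 1 of 11 and 1 of 18 were near or under 11.7%.

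Genes of polymerase III and the exosome also fell with time, while ribosomal protein genes had medians above 0; differences between lists were not tested. Of 22 genes of RNA polymerase III, which makes 5S rRNA and tRNAs, 10 to 14 fell with time and 1 to 4 rose. Maf1, its repressor, rose with TGF-beta at 24 h by 0.44 ± 0.12 without and 0.49 ± 0.12 with lactic acid. In each of these comparisons 1 of the 22 was called higher and 1 lower. Over all genes 1144 and 1159 were called higher, and 3.35% and 4.38% lower. Of 15 nuclear exosome genes, whose products trim rRNA precursors, 11, 2, 11 and 9 fell with time under no addition, lactic acid, TGF-beta and both, and 1 or 2 rose. Over all genes 18.4%, 20.1%, 24.8% and 23.0% were called lower in the same order, so the 2 exosome genes with lactic acid lie under that share. Of the 81 cytosolic ribosomal protein genes, whose products are the structural parts, 19 rose and 1 fell with time with no addition, 68 rose and none fell with lactic acid, 27 rose and 1 fell with TGF-beta, and 11 rose and 5 fell with both. Over all genes 27.1%, 26.5%, 28.0% and 24.4% were called higher in these 4 comparisons, so that the ribosomal proteins exceeded the share of all genes with lactic acid and with TGF-beta, and lay under it in the other two. Rpl13a rose by 0.98 ± 0.11 with no addition and 1.21 ± 0.10 with lactic acid, from 151.6 to 298.1 and from 130.5 to 301.9 CPM. With TGF-beta at 72 h and lactic acid, 52 of the 81 fell, where 22.5% of all genes fell. Rpl13a fell by 0.61 ± 0.10 and Rplp1 by 0.60 ± 0.09, in the same comparison in which 36 of the 42 fell.

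**Figure D5:**
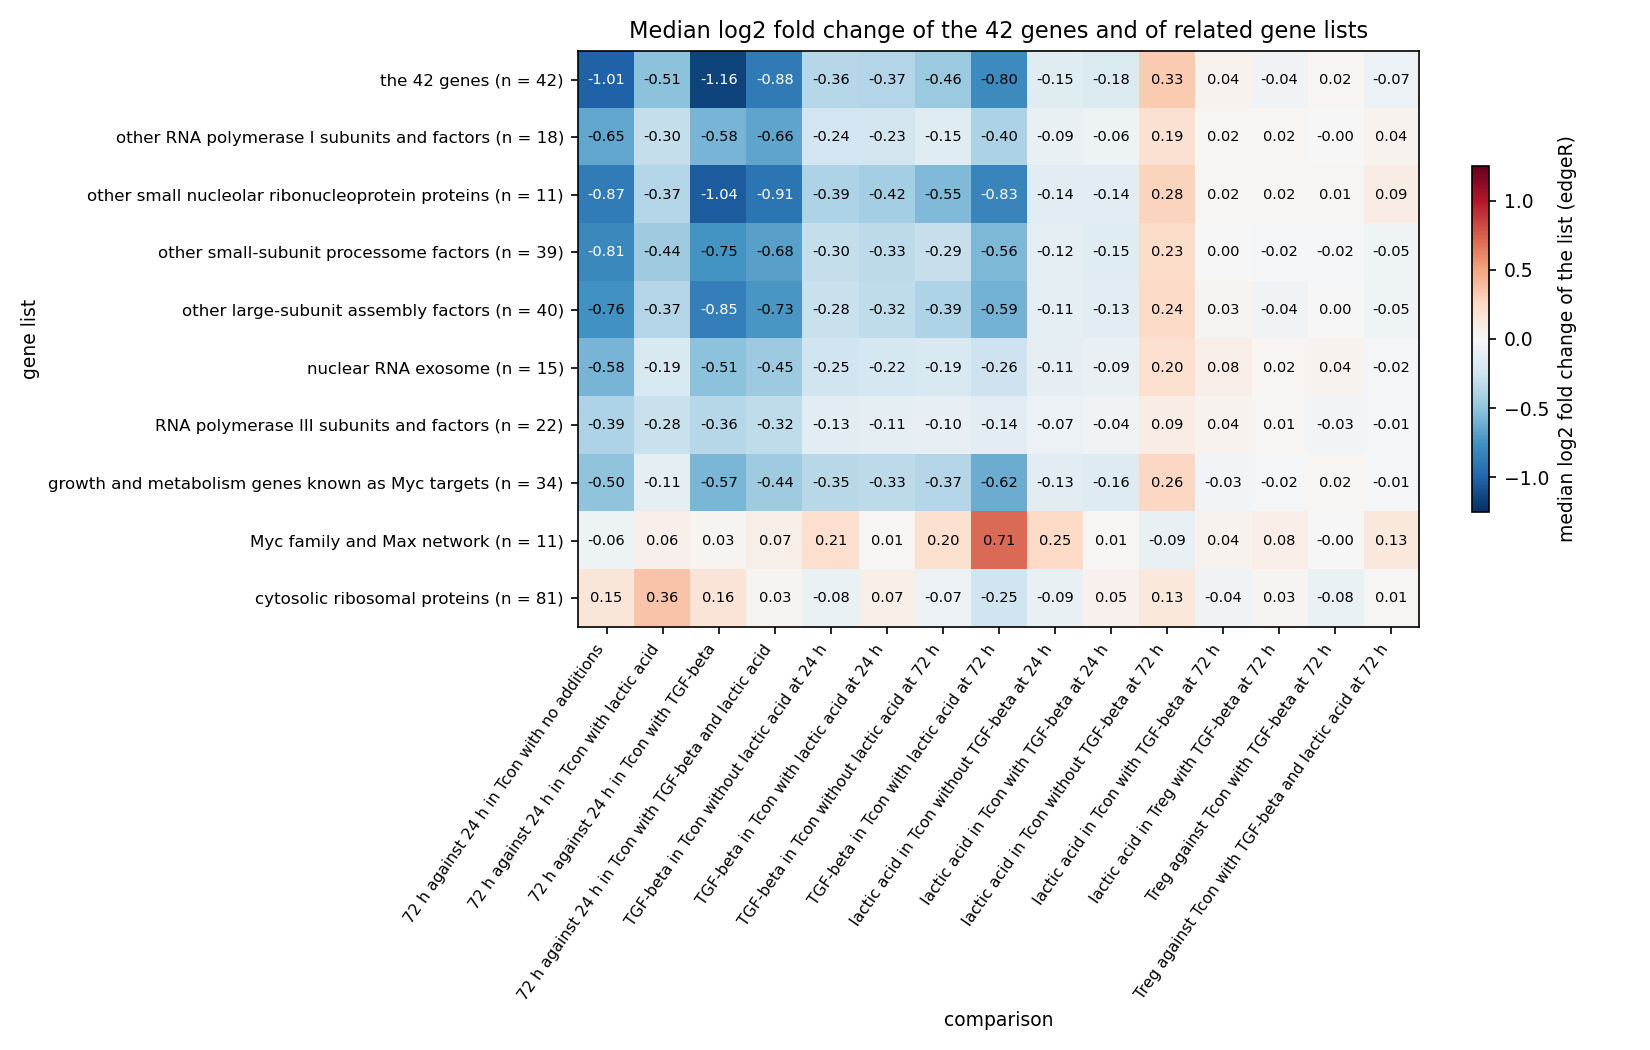
Median log2 fold change (colour and number) of the 42 genes and of 9 related gene lists (rows, with the number tested) in 15 comparisons (columns). The assembly lists share the sign of the 42 genes for time and TGF-beta, while ribosomal proteins have medians of 0.15, 0.36, 0.16 and 0.03 for time.

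Among growth and metabolism genes known as Myc targets, 17 of 34 fell and 8 rose with time and no addition, where 18.4% of all genes fell and 27.1% rose. Ccnd2, a D-type cyclin, fell by 0.90 ± 0.09, and Srm, spermidine synthase, by 1.01 ± 0.39. Eif4ebp1, a brake on cap-dependent translation, rose by 2.32 ± 0.23, from 33.4 to 167.3 CPM, the glycolytic gene Hk2 by 1.11 ± 0.16 and Mthfd2, of mitochondrial folate metabolism, by 1.27 ± 0.19. With TGF-beta 5 of 34 fell in each of the 24 h comparisons, Hk2 with changes of -0.77 ± 0.15 and -1.02 ± 0.15. Over all genes 3.35% and 4.38% were called lower at 24 h without and with lactic acid. At 72 h 5 fell and 1 rose without lactic acid, where 11.7% of all genes fell. With lactic acid 22 fell and none rose, where 22.5% of all genes fell. Hspd1, a mitochondrial chaperone, fell by 1.61 ± 0.16 there, from 976.0 to 320.4 CPM.

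Some genes of the Max network were called with time and some with TGF-beta. Max is the obligate partner, and Mxd1, Mxd3, Mxd4 and Mxi1 encode repressors that compete with Myc for Max. Of 11 genes of this network tested, 4 rose and 3 fell with time and no addition, where 27.1% of all genes rose and 18.4% fell. These counts are not far above the shares of all genes. Mxd3 rose by 4.41 ± 0.33 log2 units, from 0.464 to 10.1 CPM, and Mxi1 by 2.51 ± 0.26, from 10.7 to 61.1 CPM, while Max fell by 0.93 ± 0.16, from 199.2 to 104.4 CPM. With TGF-beta Mxd1 rose in all 4 comparisons, of which Myc was called in 1: at 24 h by 1.20 ± 0.16 (41.7 to 95.6 CPM) without and 1.00 ± 0.16 with lactic acid, and at 72 h by 1.16 ± 0.19 without and 2.01 ± 0.17 (31.2 to 126.2 CPM) with it. Mxd4 rose at 24 h by 2.31 ± 0.48 and 1.86 ± 0.46. Max rose at 72 h by 0.63 ± 0.16 and 1.01 ± 0.14, the second from 99.5 to 200.7 CPM. Of the 11 genes, 2 and 2 rose with TGF-beta at 24 h without and with lactic acid, and 0 fell. At 72 h 4 rose and 0 fell without lactic acid, and 5 rose and 1 fell with it. Among all 14375 genes tested, 1144 and 1159 rose at 24 h and 1834 and 3237 at 72 h, in the same order.

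Across the 10 group means, Pearson's r with Myc ran from 0.53 (Polr1c) and 0.57 (Npm1) to 0.96 (Bop1 and Rrs1) and 0.97 (Rrp1b) over the 41 other genes, with a median of 0.91. The groups share their scaling and, within a time, their replicate numbers, so these values describe the pattern and carry no test. With the mean of the other genes, r was lowest for Polr1c (0.79) and Npm1 (0.82), and the median was 0.99.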

How the data were processed

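Polyadenylated RNA of 29 libraries was sequenced as 65-base single reads from strand-specific libraries, per the labels' protocols. The submitters' processing notes name STAR 2.7.3a, HTSeq 0.12.4, DESeq2 1.30.1 and GRCm39; how HTSeq treated strand, and with which annotation, is not given in the sources used here. The deposited values are raw counts per Ensembl gene, made by the authors, with no normalization. Entries that name no gene stayed out of library sizes (no feature 5.72 to 11.18%, ambiguous 1.01 to 1.13%, low quality 13.28 to 16.98% of the gene counts and these entries together). Of 55414 IDs 52081 had a symbol. Gene counts per library, 9754511 to 14315313, limit the precision of low genes; the 42 genes had at least 262 counts in each library.

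Counts were fitted with edgeR 4.0.16 in R 4.3.3, all 29 libraries and 10 groups in 1 quasi-likelihood model, with TMM factors, filterByExpr (minimum count 10, minimum total 15; 14375 genes), a prior count of 0.125 and Benjamini-Hochberg adjustment over all genes at 0.05. The standard error is the log2 fold change divided by the square root of F. The script was tested on simulated data. CPM per kilobase used the length of the longest principal transcript per gene, from an annotation of another assembly. Ranks per kilobase depend on that choice. DESeq2 1.42.0, other scaling, no filter, the compared groups alone, a replicate block within each time point and leaving out each library were the alternatives; leaving out the 72 h libraries numbered 1 was chosen after seeing the data. Same-numbered libraries pair within a time: their deviations from the group means correlated at 0.123 to 0.772 in 31 pairs. Between the times 11 pairs gave -0.062 to 0.146, so time comparisons are not paired.

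The 42 genes and the gene lists were chosen with earlier results of these data known. The genes named are Myc in every comparison, up to 4 called genes with the largest change per comparison, up to 3 with the smallest p per interaction, in each role the highest and lowest per kilobase with Ncl, Npm1, Fbl, Nop56, Polr1b, Bop1 and Bysl, and up to 3 called genes per other list; others were chosen after their values were seen. Miz1 and Ahsp matched no ID and were not used.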

Additional observations from a re-analysis of the deposited data

Results flagged for a closer look

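The effect of TGF-beta in Tcon differed between 72 h and 24 h with lactic acid present for 5 of the 42 genes, each with a lower term. The test was the interaction term of edgeR's quasi-likelihood fit. Over all genes 7.66% had a lower term, so the count of 5 is not far above that share. The terms were -1.10 log2 units for Rcl1, -0.67 for Npm1, -0.52 for Nop14, -0.51 for Nob1 and -0.46 for Polr1c. In the groups with lactic acid and no TGF-beta, from which both effects are taken, Npm1 and Polr1c lay higher at 72 h than at 24 h without overlap, Npm1 at 2454 to 2686 against 1895 to 2384 CPM and Polr1c at 115.6 to 142.3 against 96.3 to 114.5 CPM. Nob1 and Nop14 overlapped there, and Rcl1 lay lower at 72 h.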

How the results depend on the processing

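No result reversed under any alternative run. With the replicate block (pairing within each time point), 39 and 38 genes were called for TGF-beta at 24 h without and with lactic acid. The block called 40 for TGF-beta at 72 h without lactic acid. For time with lactic acid it called 40, of which 38 were lower and 2 higher, and the share of all genes is not given here. It called 15 and 31 for the TGF-beta by time term without and with lactic acid, and 1 for the lactic acid by TGF-beta term at 72 h. It called 1 and 1 for lactic acid at 24 h, 4 and 5 at 72 h with TGF-beta in Tcon and Treg, and 2 for Treg against Tcon with lactic acid. In the compared groups alone, TGF-beta gave 39 and 37 at 24 h and 0 at 72 h without lactic acid. For TGF-beta at 24 h with lactic acid, RLE scaling gave 3 and library totals alone 2, where 829 and 685 of all genes were called lower. No filter gave 7 and DESeq2 7 there, with no share of all genes given here. Time with lactic acid gave 28 without the filter. The TGF-beta by time term with lactic acid gave 3 under RLE scaling, where 1211 of all genes were called higher and 841 lower. It gave 2 without the filter. Shares of all genes without the filter are not given here. Without the 72 h libraries numbered 1, the counts were 2 and 3 for lactic acid with TGF-beta in Tcon and Treg, 40 for TGF-beta at 72 h without lactic acid, 1 for Treg against Tcon with lactic acid, 31 for time with lactic acid, and 8 and 33 for the TGF-beta by time terms. The cause was not tested.

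Leaving out 1 library at a time gave 7 to 40 for time with no addition, 5 to 18 with lactic acid, 38 to 41 with TGF-beta and 29 to 37 with both. It gave 0 to 1 and 0 to 2 for TGF-beta at 24 h without and with lactic acid, 0 to 25 and 22 to 38 at 72 h, and 0 to 1 and 3 to 6 for the TGF-beta by time terms. It gave 0 throughout for lactic acid, for Treg against Tcon and for the other terms. The shares of all genes called in these fits are not given here. RLE scaling moved the share of calls over all genes that were higher from 64.8% to 54.5% for TGF-beta at 24 h with lactic acid, and from 41.8% to 52.3% and 46.8% to 59% for the TGF-beta by time terms. With 2 or 3 libraries a group, and a wide spread at 72 h, a gene that was not called is not shown to be equal.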
